A study of Mus musculus with 4 samples.

Results

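The respiratory chain genes described here are the nuclear and mitochondrial genes of oxidative phosphorylation in mouse liver, ordered by complex and by genome. They were chosen by symbol: every gene whose symbol starts with Nduf, Uqcr, Cox4, Cox5, Cox6, Cox7, Cox8, Atp5 or mt-, together with Sdha, Sdhb, Sdhc, Sdhd and Cyc1. Of 145 matching rows, 12 annotated pseudogenes and 1 second Atp5o identifier with 0 counts were left out, which left 132 members among 56953 rows, 95 of them nuclear and 37 encoded by mitochondrial DNA. The nuclear members are 37 subunits and 8 assembly factors of complex I, 4 subunits of complex II, 9 of complex III, 11 of complex IV with 8 tissue or low-abundance isoforms, 16 of complex V, and 2 further genes, the supercomplex factor Cox7a2l and the coupling factor Atp5s. The mitochondrial members are the 13 protein genes, 2 ribosomal RNA genes and 22 tRNA genes. The symbol Ndufb1-ps was kept because its annotation is not that of a pseudogene but of a long non-coding RNA at a bidirectional promoter. It has no annotated coding length and is counted here among the 37 subunits of complex I. Ndufa4 was placed in complex IV, where its protein is now assigned.

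The RNA came from livers of mice 2 months old on a normal diet. The 2 deletion libraries came from Ubc13 flox/flox mice positive for Alb, which the labels describe as a hepatic Ubc13 deletion, and the 2 control libraries came from Ubc13 flox/flox mice negative for Alb, whose genotype the labels give as WT. Both groups therefore carry the floxed alleles of Ubc13, the protein name of Ube2n, a ubiquitin-conjugating enzyme that builds K63-linked chains. The albumin promoter drives Cre in hepatocytes in the usual form of this cross, so other liver cells would keep the gene. The labels do not say whether the libraries of a group came from separate mice, so p-values measure only the spread between these libraries, and the library protocol speaks of primary hepatocyte RNA although the tissue is given as liver. The series title links the loss of Ube2n to mitophagy, the removal of damaged mitochondria.

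Libraries held 16270424 to 17800138 counts. Ube2n had 5.88 and 5.97 CPM (counts scaled to a common library size) in the deletion libraries, against 41.3 and 44.9 CPM in the control libraries. Its log2 fold change was -2.86 ± 0.16 (SE), with an adjusted p of 0.00188 by edgeR's quasi-likelihood test with Benjamini-Hochberg adjustment, the test behind every adjusted p below. All 15 hepatocyte markers were present, and their summed level was 87587 and 80509 CPM in the deletion libraries, against 195245 and 188794 CPM in the control libraries. All 15 had a log2 fold change below 0 and 4 of them (Ttr, Apoa2, Pck1 and Cyp2e1) were called lower. The 13 macrophage markers summed to 1309 and 1052 CPM in the deletion pair, against 392 and 498 CPM in the control pair, with 5 called higher and none at 0. The 12 cholangiocyte and ductular markers summed to 9942 and 9655 CPM in the deletion pair, against 1702 and 1500 CPM in the control pair, with 5 of 11 tested called higher, and Clu alone gave 8219 and 7179 CPM of the deletion sums. Another 4 of these markers (Krt19, Krt7, Epcam and Cd24a) had a log2 fold change below 0 with overlapping groups, and control replicate 1 held the highest level of each, such as 39.2 CPM of Krt19, against 3.23 CPM in control replicate 2. Of the sex-linked transcripts, Xist separated the groups, with 9590 and 3896 counts in the deletion libraries, against 9 and 2 in the control libraries, and was called higher (adjusted p = 0.00400). The 4 Y-linked genes were at 0 in deletion replicate 1 and present in the other 3 libraries, but lower in deletion replicate 2 than in both control libraries. Ddx3y had 0 and 37.0 CPM in the deletion pair, against 63.4 and 69.5 CPM in the control pair, and 0 of the 4 were called. Xist and the Y-linked genes both differed along the groups, and the labels give no sex. Deletion replicate 2 thus held both Xist and Y-linked transcripts, and results are also given without each deletion library. In bulk tissue, fewer hepatocytes and less RNA per hepatocyte cannot be told apart, and the part of these marker differences in the results below was not tested.

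Oxidative phosphorylation passes electrons from NADH (complex I) and succinate (complex II) through coenzyme Q, complex III and cytochrome c to oxygen at complex IV, and the proton gradient built on the way drives ATP synthesis by complex V. Mitochondrial DNA encodes a few core membrane subunits, the ribosomal RNAs and the tRNAs needed to translate them, while all other subunits are nuclear genes whose products are imported. Complex II is the only one of the chain with no subunit from mitochondrial DNA. Hepatocytes depend on this system for gluconeogenesis, urea synthesis and fatty acid oxidation.

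Most respiratory chain transcripts had lower levels in the deletion libraries, in both genomes and in each of the 5 complexes, but few single genes passed the test. Of the 132 members, 118 passed the filter on low counts, and 112 of these had a log2 fold change below 0, against 50.4% of all 14600 genes tested. The test called 11 members lower and 0 higher, or 9.32% of those tested called lower, where 2.16% of all genes tested were called lower, 4.41% higher and 6.57% either way. At an unadjusted p under 0.05, 76 members were lower and 0 higher, where 10.5% of all genes tested were lower and 14.0% higher. The count of members called lower was 30 with DESeq2, which called 4.08% of all its genes lower, 3 with scaling by library sizes alone, 1 without deletion replicate 1 and 0 without deletion replicate 2; none was called higher in these settings. The number of all genes called lower also fell with library sizes alone and on leaving out either deletion library. With the main scaling, both deletion libraries lay below both control libraries in 103 members, 87.3%, where 27.3% of all genes tested showed that order. The opposite order was shown by 0 members and by 28.7% of all genes. The members' median log2 fold change was -0.50, beside 0.00 for all genes tested. By exact permutation, 2 libraries against 2 cannot give a p below 0.3333 for a single gene, so the calls rest on the spread shared across genes.

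**Figure D1:**
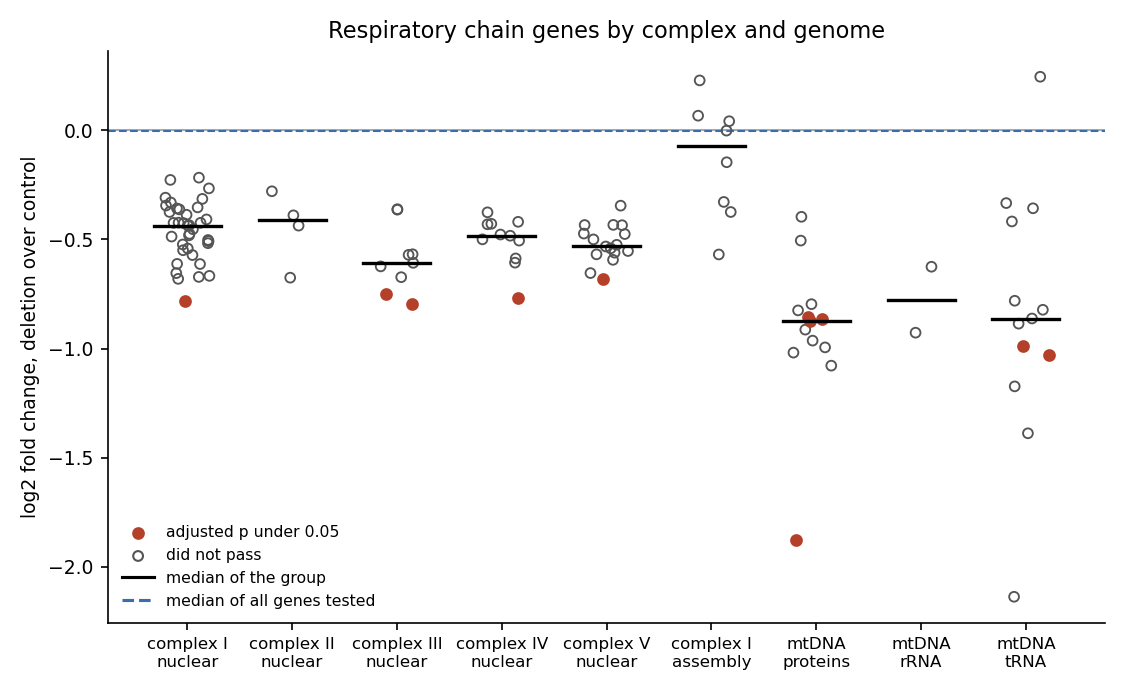
Log2 fold change, deletion over control, of each tested respiratory chain gene, in columns for the nuclear subunits of each complex and the groups of mitochondrial genes; each point is a gene, and the line near 0 is the median of all genes tested. All 77 nuclear subunits and all 13 mitochondrial protein genes lie below 0, and the assembly factors of complex I scatter around it.

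All 77 nuclear subunits were tested, and all 77 had a log2 fold change below 0, between -0.80 and -0.22 with a median of -0.48. With the main scaling, both deletion libraries lay below both control libraries in 76 of them, the exception being Sdhc of complex II, and 5 were called lower. How many keep this order with library sizes alone was not counted. As a share of all counts in a library, the complex II sum overlapped. It was 0.0924% and 0.0838% in the deletion libraries, against 0.104% and 0.0899% in the control libraries. The shares of complexes I, III, IV and V did not overlap. The summed level of the 77 subunits was 10483 and 9308 CPM in the deletion libraries, against 14666 and 13174 CPM in the control libraries. The deletion mean was thus 71.1% of the control mean. Scaling by library sizes alone raised the median of all genes by 0.29, and 73 of the 77 were then still below 0, with Ndufa8, Ndufb2, Ndufs4 and Sdhc slightly above it. A scaling shifts all genes nearly alike, so the distance of the subunits' median from that of all genes, -0.48, is the same by construction. Under that scaling 88.5% of the calls over all genes were higher, against 67.2% with the main scaling. Other genes in the range of levels that covers most subunits, 39.4 to 348 CPM, numbered 3208 and had a median log2 fold change of -0.05. Against the control mean, the median subunit stood at -0.41 in deletion replicate 1 and at -0.59 in deletion replicate 2 on the log2 scale, and replicate 2 was the lower of the deletion pair in 69 of 77 subunits. Control replicate 2 was likewise the lower of the control pair in 67 of 77.

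Complex I, the NADH dehydrogenase, had 37 nuclear subunits with a median log2 fold change of -0.44. Their sum was 2396 and 2125 CPM in the deletion libraries, against 3231 and 3031 CPM in the control libraries. The 7 nuclear core subunits, which carry the flavin and iron-sulfur centres, and the 30 accessory subunits had medians of -0.45 and -0.43. Among the families named by symbol, the 11 Ndufb genes, most of whose products lie in the far part of the membrane arm, had a median of -0.61, the 12 Ndufa genes -0.45 and the 8 Ndufs genes -0.44; whether these families differ was not tested.

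Ndufb11, an accessory subunit of the membrane arm on chromosome X (20615326 to 20617619, GRCm38), had 80.5 and 74.6 CPM in the deletion libraries, against 137.9 and 128.5 CPM in the control libraries. It was the subunit of complex I with the largest fall and the only one called, at -0.78 ± 0.15 (adjusted p = 0.0342). Ndufb6, another subunit of that arm, stood just outside the threshold, with a log2 fold change of -0.67 and an adjusted p of 0.0515. Ndufa8, with the smallest difference of the complex, had 93.9 and 78.7 CPM in the deletion pair, against 97.6 and 103.1 CPM in the control libraries (-0.22 ± 0.16, adjusted p = 0.457). With the main scaling, the deletion pair lay below the control pair in each of the 37 subunits, also where the gap was narrow, as in Ndufa8.

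The 8 assembly factors Ndufaf1 to Ndufaf8, which help to build complex I but are not part of it, did not share this order. Their log2 fold changes ran from -0.57 to 0.23 with a median of -0.07, 5 were below 0 and 3 above, and the groups overlapped in 5 of 8. None was called, and none had an unadjusted p under 0.05, the lowest being 0.0504. Ndufaf4 had 37.0 and 22.6 CPM in the deletion libraries, against 40.2 and 48.4 CPM in the control libraries, and Ndufaf5 had 5.93 and 5.92 CPM in the deletion pair, against 6.05 and 4.05 CPM in the control pair. Among 40 tested assembly factors of the other complexes and further factors of complex I, 0 were called either way and the median was -0.18; 0 were higher and 6 lower at an unadjusted p under 0.05, where 10.5% of all genes tested were lower.

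Complex II, succinate dehydrogenase, which also serves the tricarboxylic acid cycle, had no called subunit. Sdha, the flavin subunit, had 373.3 and 345.5 CPM in the deletion libraries, against 488.0 and 453.7 CPM in the control libraries (-0.39 ± 0.16, adjusted p = 0.203). Sdhb, the iron-sulfur subunit, had 130.1 and 110.8 CPM in the deletion pair, against 212.5 and 172.2 CPM in the control pair (-0.68 ± 0.18, adjusted p = 0.0820). The other 2 subunits anchor the complex in the membrane. Sdhd had 176.3 and 141.5 CPM in the deletion pair, against 230.2 and 199.99 CPM in the control pair (-0.44 ± 0.18, adjusted p = 0.203), and Sdhc had 179.8 and 140.2 CPM in the deletion pair, against 209.1 and 179.3 CPM in the control pair (-0.28 ± 0.19, adjusted p = 0.417). Sdhc was the only nuclear subunit whose groups overlapped with the main scaling, since deletion replicate 1 lay just above control replicate 2.

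Complex III, the cytochrome bc1 complex, had the lowest median of the 5, -0.61 over 9 nuclear subunits, and 2 calls. Uqcrq, a small subunit of the membrane part, had 198.1 and 189.2 CPM in the deletion libraries, against 351.6 and 321.5 CPM in the control libraries, and was called at -0.80 ± 0.15 (adjusted p = 0.0367). Uqcr11, another small subunit, had 87.8 and 87.1 CPM in the deletion pair, against 152.4 and 141.9 CPM in the control pair and was called at -0.75 ± 0.14 (adjusted p = 0.0357). In both genes the deletion libraries were close together and well below the control libraries. Uqcrc2, a core protein on the matrix side, had 182.9 and 167.2 CPM in the deletion pair, against 231.6 and 218.2 CPM in the control pair, the smallest difference of the complex (-0.36, adjusted p = 0.207). Within each library, the counts of complex III over those of complex II were 1.55 and 1.62 in the deletion libraries, against 1.74 and 1.78 in the control libraries. These ratios do not depend on the scaling between libraries. The ratio of complex V to complex II did not overlap either, at 4.83 and 4.89 in the deletion pair, against 5.09 and 5.04 in the control pair. The ratio of complex IV to complex II overlapped, at 2.03 and 2.23 in the deletion pair, against 2.21 and 2.27 in the control pair, as did that of complex I to complex II, at 2.79 and 2.88 in the deletion pair, against 2.84 and 3.02 in the control pair.

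Complex IV, cytochrome c oxidase, had 11 nuclear subunits with a median of -0.48, and all 11 had an unadjusted p under 0.05. Cox7b, a small subunit on chromosome X (106015700 to 106022450, GRCm38), had 93.9 and 97.1 CPM in the deletion libraries, against 168.0 and 157.3 CPM in the control libraries, and was the only one called (-0.77 ± 0.14, adjusted p = 0.0342). Cox4i1, the main form in these libraries of a regulatory subunit, had 297.8 and 290.0 CPM in the deletion pair, against 431.3 and 390.3 CPM in the control pair (-0.48, adjusted p = 0.129). Cox6a1 had 232.9 and 229.6 CPM in the deletion pair, against 370.0 and 324.7 CPM in the control pair (-0.59, adjusted p = 0.0851), and Cox6b1, with the smallest difference, had 146.3 and 130.1 CPM in the deletion pair, against 187.7 and 171.1 CPM in the control pair (-0.38, adjusted p = 0.204). Cox7a2, Cox8a and Ndufa4 lay between these, at -0.42, -0.48 and -0.43, with no call.

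The isoforms known from muscle, lung or testis were near the detection limit. Cox7b2, Cox8b and Cox8c had 0 counts in all 4 libraries. By counting error alone this allows up to 0.184 CPM in the shallowest library, here by its total count without scaling. Cox6a2 had at most 1 count and Cox4i2 at most 5. Cox6b2 had 7 and 22 counts in the deletion libraries, against 24 and 9 in the control libraries. Cox7a1 had 19 and 45 counts in the deletion pair, against 80 and 21 in the control pair, and Ndufa4l2 had 30 and 36 in the deletion pair, against 19 and 26 in the control pair. The groups overlapped in all 3 and none was called, so no switch between isoforms was detectable at this depth. Cox7a2l, a factor that joins complexes III and IV into supercomplexes, had 86.8 and 79.3 CPM in the deletion pair, against 99.6 and 87.7 CPM in the control pair (-0.17, adjusted p = 0.544), and its log2 fold change was 0.12 when only library sizes were used for scaling.

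Complex V, the ATP synthase, had 16 nuclear subunits with a median of -0.53 and 1 call. Atp5k, the small subunit e of the membrane part, had 39.3 and 35.3 CPM in the deletion libraries, against 60.02 and 59.7 CPM in the control libraries, and was called at -0.68 ± 0.14 (adjusted p = 0.0484). Atp5b, the catalytic beta subunit, had 1283 and 1089 CPM in the deletion pair, against 1742 and 1461 CPM in the control pair and was not called (-0.43 ± 0.20, adjusted p = 0.250). The 5 subunits of the F1 head had a median of -0.47 and the other 11 a median of -0.54. The 3 genes for the same c-ring protein, Atp5g1, Atp5g2 and Atp5g3, had log2 fold changes of -0.59, -0.35 and -0.55 with adjusted p of 0.0986, 0.233 and 0.108. The coupling factor Atp5s was low, at 5.11 and 7.67 CPM in the deletion pair, against 7.28 and 3.78 CPM in the control pair, and its groups overlapped.

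**Figure D2:**
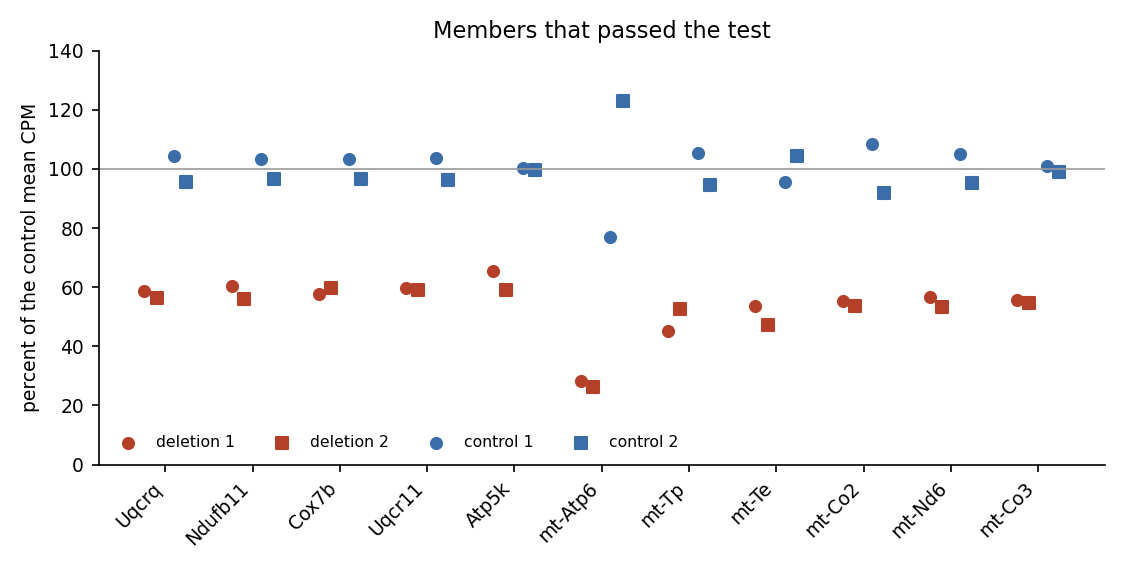
Level of the 11 called members in each library as a percent of the control mean CPM; red marks are the deletion libraries and blue marks the control libraries, with circles for replicate 1 and squares for replicate 2. In every gene the deletion pair lies below the control pair, and mt-Atp6 has the widest spread between the control libraries.

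The 5 called nuclear subunits encode small accessory proteins of the membrane parts of their complexes. No call held when a deletion library was left out: without deletion replicate 1 their adjusted p was 0.117 to 0.149, and without deletion replicate 2 it was 0.181 to 0.270, although their log2 fold changes stayed below 0. Coding length over the nuclear subunits tracked little with the fold change (Spearman rho = 0.17 over 76 genes, which share libraries and are not independent), as did the mean log2 CPM (rho = -0.13 over 77). Of the 3 nuclear subunits on chromosome X, Ndufb11 and Cox7b were called and Ndufa1 was not (-0.54, adjusted p = 0.0782), while the 428 tested genes of that chromosome had a median of 0.07, with 13 called higher and 6 lower. The part of the Xist difference in these values was not tested.

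Promoter windows of the respiratory chain genes were read because their nuclear subunits moved together and are known targets of NRF1, the ETS factor GABP and YY1. RefSeq windows (GRCm38.p6, 250 bases before to 50 after the start) were found for 62 of the 77 nuclear subunits. The NRF1 word, GCGCA and GCGC parted by any 1 base and read on both strands like the other words, was in 25.8% of them and in 10.1% of the 10604 windows of tested genes. The ETS word CCGGAAG was in 24.2% against 17.8%, and the YY1 word AAGATGGC in 12.9% against 4.53%. Subunits with and without each word had median log2 fold changes of -0.44 and -0.51 for NRF1, -0.61 and -0.45 for ETS, and -0.42 and -0.52 for YY1, which are descriptions with no test. The windows of the called genes Ndufb11 and Cox7b held none of these words; the window of Uqcrq was not analysed here. The windows of Atp5k (chr5:108434350-108434649, minus strand) and Uqcr11 (chr10:80406772-80407071, minus strand) are shown because they are called subunits that hold a word; capitals mark the NRF1 word, which begins 50 bases before the Atp5k start and reads the same on both strands, and the ETS word. The ETS word begins 13 bases after the Atp5k start, on the opposite strand, and 66 bases before the Uqcr11 start, on the strand of the gene.
Atp5k: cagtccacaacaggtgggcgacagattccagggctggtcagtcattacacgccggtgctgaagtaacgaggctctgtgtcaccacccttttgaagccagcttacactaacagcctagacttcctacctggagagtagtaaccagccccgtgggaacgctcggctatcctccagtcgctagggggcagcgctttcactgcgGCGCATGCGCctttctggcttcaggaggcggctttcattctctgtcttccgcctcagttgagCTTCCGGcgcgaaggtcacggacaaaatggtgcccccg
Uqcr11: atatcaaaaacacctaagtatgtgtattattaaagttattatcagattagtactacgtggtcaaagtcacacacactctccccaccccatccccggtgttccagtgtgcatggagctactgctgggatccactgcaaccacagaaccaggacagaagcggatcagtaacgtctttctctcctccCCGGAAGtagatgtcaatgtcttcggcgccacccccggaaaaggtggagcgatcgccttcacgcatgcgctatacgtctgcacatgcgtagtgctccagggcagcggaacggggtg

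Transcripts of mitochondrial DNA were lower in the deletion libraries. With the main scaling, all 13 protein genes had both deletion libraries below both control libraries. Their log2 fold changes ran from -1.88 to -0.40 with a median of -0.88, and 4 were called lower. Mitochondrial genes took 3.86% and 3.92% of all counts in the deletion libraries (95% exact Clopper-Pearson intervals 3.85 to 3.87 and 3.91 to 3.93), against 5.28% and 5.01% in the control libraries (5.27 to 5.29 and 5.002 to 5.024), and the intervals cover counting error only. The nuclear members took 1.15% and 1.08% in the deletion pair, against 1.36% and 1.20% in the control pair. The ratio of mitochondrial to nuclear counts within a library was 3.35 and 3.63 in the deletion libraries, against 3.88 and 4.18 in the control libraries. Albumin alone took 4.87% of the counts in each deletion library, against 10.8% and 10.3% in the control libraries.

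**Figure D3:**
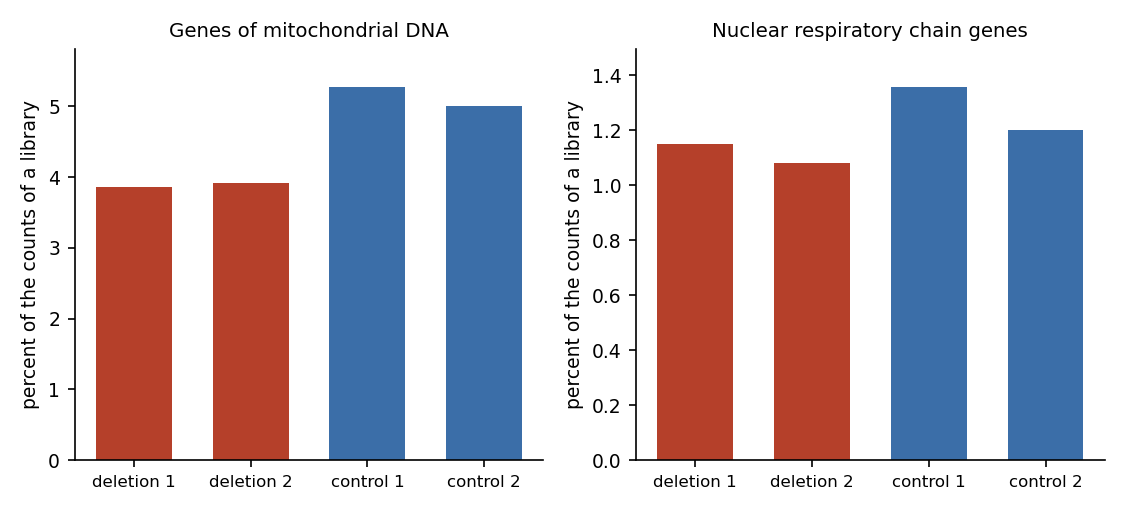
Share of the counts of each library, in percent, taken by mitochondrial DNA and by the nuclear members; bars are single libraries, deletion in red and control in blue. The mitochondrial share is 3.86% and 3.92% in the deletion libraries, below 5.28% and 5.01% in the control libraries.

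The long transcripts of mitochondrial DNA differed among themselves. mt-Co1, which encodes the catalytic core of complex IV, had 14790 and 14161 CPM in the deletion libraries, against 22100 and 18996 CPM in the control libraries (-0.51 ± 0.26, adjusted p = 0.297). mt-Cytb, the cytochrome b of complex III, had 6381 and 5347 CPM in the deletion pair, against 11527 and 11838 CPM in the control pair (-0.99 ± 0.24, adjusted p = 0.0644). The ratio of mt-Cytb to mt-Co1 within a library was 0.431 and 0.378 in the deletion libraries, against 0.522 and 0.623 in the control libraries, so their order does not depend on scaling. For mt-Nd1, a membrane subunit of complex I, the ratio to mt-Co1 overlapped, at 0.261 and 0.320 in the deletion pair, against 0.238 and 0.305 in the control pair. mt-Nd1 had 3862 and 4527 CPM in the deletion pair, against 5253 and 5791 CPM in the control pair, the smallest difference among the protein genes (-0.40 ± 0.22, adjusted p = 0.330). The proton-pumping subunits mt-Nd2, mt-Nd4 and mt-Nd5 of complex I had log2 fold changes of -0.80, -0.91 and -0.83, with adjusted p of 0.0809, 0.0604 and 0.0663. mt-Nd4 had 3467 and 3044 CPM in the deletion libraries, against 6194 and 6068 CPM in the control libraries.

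**Figure D4:**
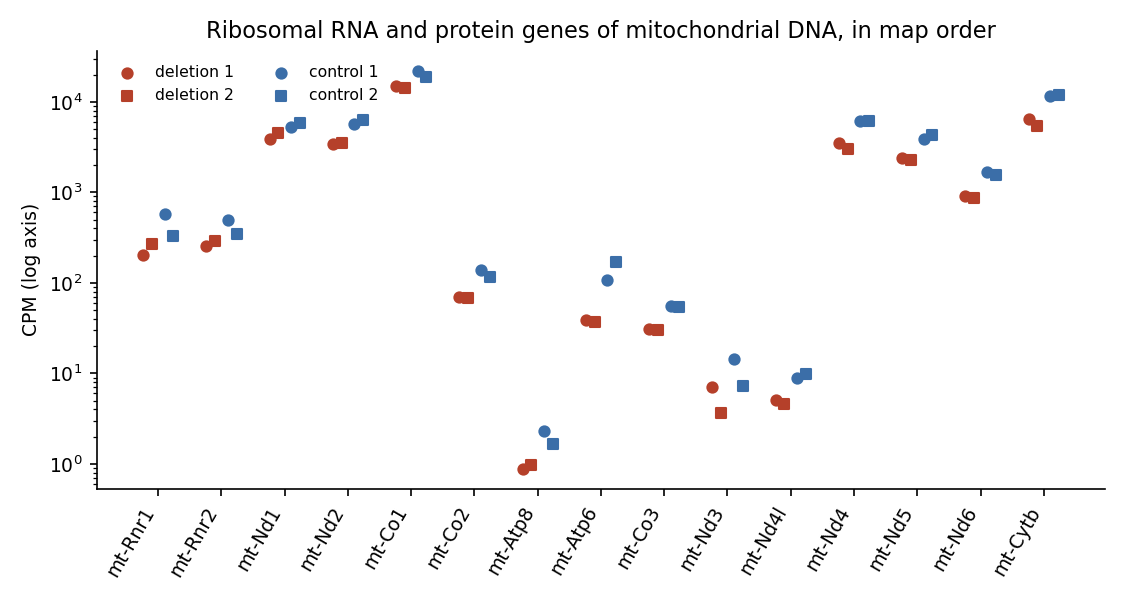
CPM on a log axis of the 2 ribosomal RNA genes and 13 protein genes of mitochondrial DNA in map order, 1 mark per library, deletion in red and control in blue. The genes from mt-Co2 to mt-Nd4l have low counts beside mt-Co1 and mt-Nd4 in all 4 libraries, and the deletion marks lie below the control marks in every gene. Of these low genes, mt-Co2, mt-Atp6, mt-Co3, mt-Nd3 and mt-Nd4l have near-identical copies on chromosome 1. The part of these copies in the low counts was not tested.

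The called protein genes of mitochondrial DNA were mt-Atp6, mt-Co3, mt-Co2 and mt-Nd6. mt-Atp6, which encodes the proton channel subunit of complex V, had 39.1 and 36.7 CPM in the deletion libraries, against 107.2 and 171.4 CPM in the control libraries (-1.88 ± 0.25, adjusted p = 0.0137). mt-Co2 had 70.0 and 67.9 CPM in the deletion pair, against 136.9 and 116.0 CPM in the control pair (-0.88 ± 0.16, adjusted p = 0.0303), and mt-Co3 had 30.8 and 30.2 CPM in the deletion pair, against 55.9 and 54.6 CPM in the control pair (-0.86 ± 0.14, adjusted p = 0.0241). Both encode core subunits of complex IV. mt-Nd6, the only protein gene on the light strand, had 916.9 and 859.7 CPM in the deletion pair, against 1696 and 1538 CPM in the control pair (-0.86 ± 0.18, adjusted p = 0.0451). Its end overlaps that of mt-Nd5, and the counting strand is not given in the sources used here, so reads of the opposite strand cannot be told apart. mt-Atp6 kept its call without deletion replicate 1 (adjusted p = 0.0420) and lost it without deletion replicate 2 (0.0643). The other called mitochondrial genes lost theirs without either.

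Several of these genes have near-identical copies in nuclear DNA, so reads may have been counted at either. Annotated pseudogenes that match at 95% or more over at least 75 bases exist for 9 of the 37 mitochondrial and 32 of the 95 nuclear members, and they held over 10% of the counts of gene plus copy for 5 in each genome: mt-Atp6, mt-Co2, mt-Co3, mt-Nd3 and mt-Nd4l, and Atp5g1, Atp5h, Atp5l, Ndufa12 and Ndufab1. On chromosome 1, 7 such copies lie within 24611535 to 24616197 on the minus strand (GRCm38). Gm10925 matches mt-Atp6 at 100% over 678 bases, and had 734 and 804 counts in the deletion libraries, against 1273 and 1048 in the control libraries. With the copy added, mt-Atp6 had 79.5 and 78.1 CPM in the deletion pair, against 185.7 and 243.4 CPM in the control pair, and the log2 ratio of the means was -1.45. For mt-Co2 and mt-Co3 the same sums gave -0.90 and -0.87. Such sums cannot restore reads that were counted at neither place. With its copy, mt-Co2 had 104 and 103 CPM in the deletion pair and 209 and 179 CPM in the control pair. mt-Co1 had 14161 CPM or more in every library. mt-Nd3 plus Gm28438 gave 20.9 and 32.6 CPM in the deletion pair, against 42.0 and 65.9 CPM in the control pair, a log2 ratio of -1.01. mt-Nd3 alone gave -1.01 as well, and was called neither by itself nor with its copy added. Where the copies are identical to the gene, how the authors' alignment divided reads between them is not given in the sources used here, and their values are uncertain to that extent. The stretches below show this for 3 pairs; capitals mark the base that differs, positions count from 1 at the first base of the mitochondrial gene, and the substitutions are T3C for Gm28438 against mt-Nd3 and A1066T for Gm29216 against mt-Co1, each the only difference over 345 and 483 aligned bases. The last pair of lines, mt-Atp6 and Gm10925, has no capitals because the stretch is identical. Coordinates (GRCm38) are chrM:9459-9518 plus strand for mt-Nd3, chr1:24613060-24613119 minus strand for Gm28438, chrM:6390-6449 plus strand for mt-Co1, chr1:24616129-24616188 minus strand for Gm29216, chrM:8545-8604 plus strand for mt-Atp6 and chr1:24613974-24614033 minus strand for Gm10925.
mt-Nd3: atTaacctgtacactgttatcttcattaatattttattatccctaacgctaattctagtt
Gm28438: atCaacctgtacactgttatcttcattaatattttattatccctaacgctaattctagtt
mt-Co1: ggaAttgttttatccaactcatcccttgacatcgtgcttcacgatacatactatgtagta
Gm29216: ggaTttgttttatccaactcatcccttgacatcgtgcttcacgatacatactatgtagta
mt-Atp6: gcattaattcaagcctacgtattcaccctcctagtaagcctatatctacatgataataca
Gm10925: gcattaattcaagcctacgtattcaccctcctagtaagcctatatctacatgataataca

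**Figure D5:**
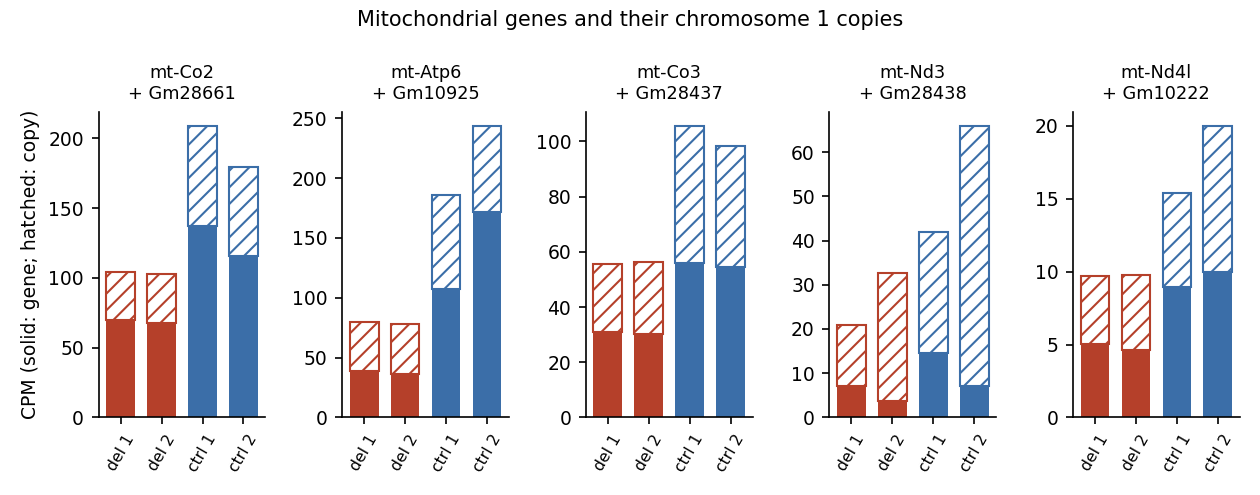
CPM of mitochondrial genes (solid) and of their chromosome 1 copies (hatched, stacked on top) in each library, deletion in red and control in blue. In the summed bars both deletion libraries lie below both control libraries, also for mt-Atp6, where the copy adds 40.3 and 41.4 CPM in the deletion libraries and 78.5 and 72.0 CPM in the control libraries.

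The ribosomal and transfer RNA genes followed the same direction with more spread. mt-Rnr1, the small ribosomal RNA, had 202 and 272 CPM in the deletion libraries, against 574 and 328 CPM in the control libraries (-0.93, adjusted p = 0.130), and mt-Rnr2 had 258 and 288 CPM in the deletion pair, against 499 and 344 CPM in the control pair (-0.63, adjusted p = 0.153). Of the 22 tRNA genes 13 were tested, 12 had a log2 fold change below 0 and 2 were called. mt-Tp, the proline tRNA, had 39.0 and 45.4 CPM in the deletion pair, against 90.9 and 81.4 CPM in the control pair (-1.03 ± 0.16, adjusted p = 0.0213). mt-Te, the glutamate tRNA, had 14.8 and 13.02 CPM in the deletion pair, against 26.4 and 28.8 CPM in the control pair (-0.99 ± 0.16, adjusted p = 0.0236). Both genes lie on the light strand, and the same limit on strand holds for them. The libraries were primed with oligo-dT, which favours RNA with a poly(A) tail, so counts at tRNA and ribosomal RNA genes may not follow the mature molecules.

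Of 28 tested genes of mitochondrial DNA upkeep and expression, 1 was called, Hsd17b10, a subunit of the mitochondrial RNase P that cuts tRNAs from their precursors, at 71.6 and 62.2 CPM in the deletion libraries, against 145.7 and 139.7 CPM in the control libraries (-1.09 ± 0.15, adjusted p = 0.0160). Tfam, the packaging and transcription factor of mitochondrial DNA, was at -0.28 ± 0.15 (adjusted p = 0.314). The 28 upkeep and expression genes had a median of -0.24, with 2 higher and 4 lower at an unadjusted p under 0.05. Among 17 regulators of mitochondrial biogenesis none was called and the median was -0.25, with 1 higher and 2 lower at that limit. Ppargc1a, the coactivator of that programme, had 13.1 and 25.0 CPM in the deletion pair, against 22.3 and 24.3 CPM in the control pair, and overlapped (-0.29 ± 0.30, adjusted p = 0.616). Nrf1 and Esrra, which bind promoters of chain genes, were at 0.01 ± 0.23 and -0.10 ± 0.14. Of 15 genes of coenzyme Q synthesis and cytochrome c, 13 of the tricarboxylic acid cycle and 17 of the outer membrane and protein import, none was called, with medians of -0.19, -0.22 and -0.17. At an unadjusted p under 0.05, 2, 4 and 2 of them were lower and 0 higher, beside the 10.5% of all genes tested that were lower. Cycs, the cytochrome c carried between complexes III and IV, was at -0.25 ± 0.16 (adjusted p = 0.405).

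The only genes called higher in these pathway lists were among 11 tested genes of other electron entry and uncoupling. Gpd2, the mitochondrial glycerol phosphate dehydrogenase that feeds coenzyme Q, had 57.8 and 57.2 CPM in the deletion libraries, against 32.5 and 30.5 CPM in the control libraries (0.87 ± 0.14, adjusted p = 0.0241). Ucp2, an inner membrane carrier, had 82.1 and 69.2 CPM in the deletion pair, against 42.3 and 39.6 CPM in the control pair (0.89 ± 0.16, adjusted p = 0.0307). Slc25a4, an ADP/ATP carrier, had 85.3 and 77.8 CPM in the deletion pair, against 39.0 and 23.8 CPM in the control pair (1.37 ± 0.25, adjusted p = 0.0323). In all 3 the deletion libraries lay above both control libraries. Ucp2 is known to be high in macrophages, whose markers were higher in these deletion libraries, and the part of those cells in the 3 values was not tested.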

How the data were processed

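Liver RNA of 4 mouse libraries was sequenced after QuantSeq 3' library preparation, with oligo-dT priming, per the labels' protocols. Alignment with Bowtie2 and the build mm10 (GRCm38) are named in the submitters' processing notes; which counter was used, with what strand setting and what handling of reads with several matches, is not given in the sources used here. Raw counts per Ensembl gene, not normalized, were deposited in 1 table of 56953 rows. Symbols came from GENCODE M21 (52029 rows matched, 4924 did not), and 0 columns belonged to other samples. Libraries held 16270424 to 17800138 counts. By these totals, without scaling, 3 counts, the limit that 0 allows, equal 0.169 to 0.184 CPM.

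Counts were fitted with edgeR 4.0.16 in R 4.3.3 (TMM factors 1.08 and 1.14 for deletion, 0.912 and 0.896 for control; filterByExpr with a minimum count of 10 and total of 15; quasi-likelihood F test; no covariate; 2 residual degrees of freedom). Genes with a Benjamini-Hochberg adjusted p under 0.05 over all 14600 genes tested were called. CPM use TMM-scaled library sizes, the SE was obtained by dividing the size of the log2 fold change by the root of its F statistic, and summed CPM cover all genes of a group. The script was tested on simulated data. Members and lists were chosen with earlier results of these data known. Named were the called members, the protein and ribosomal RNA genes of mitochondrial DNA, the subunit of each complex with the highest mean CPM and those with the lowest and highest fold change, complex II, the isoform sets, up to 4 called genes per list, and Ppargc1a, Tfam, Nrf1, Esrra and Cycs; other names were chosen after their values were seen. Some genes under this rule are not reported here. Alternatives were other scalings, no filter, DESeq2 1.42.0, a replicate block, leaving out each library, and, added after seeing the data, crossed pairs and chromosome 1 copies summed with their genes.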

Additional observations from a re-analysis of the deposited data

How the results depend on the processing

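Over all genes, 959 were called; library sizes alone gave 1764, no filter on low counts 2768, DESeq2 1563, and leaving out a library 343 to 2081. Members called lower numbered 11, against 3 with library sizes alone, 38 with no filter, 30 with DESeq2, and 0 (without deletion replicate 2), 1 (without deletion replicate 1), 14 (without control replicate 1) and 30 (without control replicate 2); none was called higher in any of these. Among all genes, 315 of 14600 were called lower in the main fit and 202 of 14600 with library sizes alone. No filter gave 1125 of 25648 called lower, and DESeq2 610 of 14946. The number of all genes called lower fell on leaving out either deletion library and rose on leaving out either control library. The members' count moved in the same directions. The replicate block called 390 genes, 126 of them lower, and 1 member. The numbers pair nothing in the labels, and over all genes same-numbered libraries did not deviate together (r = -0.12). Some genes did differ by replicate number in both groups. The share of mt-Nd3 plus Gm28438 counted at Gm28438 was 65.8% and 65.5% in deletion and control replicate 1. It was 89.0% and 89.1% in deletion and control replicate 2. Whether same-numbered libraries share a further factor was not tested. Crossed pairs, added after seeing the data, gave 1366 genes, 438 of them lower, and 12 members. With library sizes alone the medians were -0.18 (nuclear members), -0.58 (mitochondrial members), -0.15, -0.12, -0.32, -0.19 and -0.24 (nuclear subunits of complexes I to V), because all genes shifted by 0.29. Leaving out a library gave -0.93 to -0.81 for the mitochondrial members, -0.56 to -0.39 for the nuclear members, -0.56 to -0.39 for complex I and -0.70 to -0.50 for complex III. Among the nuclear subunits and Cox7a2l, directions turned with library sizes alone for Cox7a2l (0.12), Ndufa8 (0.072), Ndufb2 (0.061), Ndufs4 (0.025) and Sdhc (0.0067). On leaving out a library, all 77 nuclear subunits stayed below 0. Directions then turned for the isoforms Cox6b2 (-1.44 to 0.30), Cox7a1 (-1.61 to 0.22) and Ndufa4l2 (-0.032 to 0.58). The cause of these turns was not tested. None of these genes was called with all 4 libraries. Of the 11 called members, mt-Atp6 was called in 11 of 12 settings, mt-Te and mt-Tp in 9, mt-Nd6 in 6 and the others in 8. RLE size factors, scaling without mitochondrial genes and summing the chromosome 1 copies left 11 members called.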

Other observations

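Atpif1, the inhibitor of ATP synthase, and Usmg5, a small subunit of it, carry symbols outside the naming rule and are therefore no members. Atpif1 had 18.7 and 21.4 CPM in the deletion libraries, against 14.3 and 7.08 CPM in the control libraries (0.91 ± 0.33, adjusted p = 0.161 by edgeR), and the groups did not overlap. Usmg5 had 101.4 and 90.3 CPM in the deletion pair, against 129.2 and 122.6 CPM in the control pair (-0.39 ± 0.15, adjusted p = 0.175). Among the tRNA genes that did not pass the filter, mt-Tr had 1 and 0 counts in the deletion libraries and 30 and 1 in the control libraries, so a single library holds nearly all of its counts. mt-Nd3 and its chromosome 1 copy Gm28438 differed between replicates in opposite directions: mt-Nd3 had 7.14 and 3.60 CPM in deletion replicates 1 and 2 and 14.5 and 7.21 CPM in control replicates 1 and 2, while Gm28438 had 13.7 and 29.0 CPM and 27.5 and 58.7 CPM in the same libraries. In both groups replicate 1 thus had the larger share of reads at the mitochondrial locus.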
